A study of Homo sapiens with 6 samples.

Results

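Neurotrophins are secreted growth factors that keep neurons alive and shape their axons and synapses. BDNF acts through the receptor tyrosine kinase TrkB, encoded by *NTRK2*, and NT-3, encoded by *NTF3*, acts mainly through TrkC, encoded by *NTRK3*. Both Trk genes also make truncated receptors that lack the kinase domain. All neurotrophins bind the p75 receptor, encoded by *NGFR*, and the uncleaved proneurotrophins bind p75 together with sortilin, encoded by *SORT1*. In SH-SY5Y cells, retinoic acid is known to raise TrkB, after which BDNF is used to drive neuronal differentiation.

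The 6 genes *NTRK2*, *NTRK3*, *NGFR*, *BDNF*, *NTF3* and *SORT1* were taken through every probe set whose annotation gave exactly 1 of these symbols. Of the 6, 4 had such a probe set, out of 18244 genes on the array with one. They were read by 21 of 49393 probe sets: 10 for *NTRK2*, 4 for *NTRK3*, 2 for *NGFR* and 5 for *BDNF*. No probe set was named for *NTF3* or *SORT1* in the annotation used, so these 2 genes were not analysed here. The 4 measured genes are 3 receptors and 1 ligand.

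The arrays held total RNA of SH-SY5Y cells, a line derived from a human neuroblastoma and used as a neuronal cell model. One group of 3 arrays came from cells transfected with an anti-miR against hsa-miR-137 and the other group of 3 from cells transfected with Anti-miR Negative Control #1, both at 15 pM with Lipofectamine RNAiMAX. Transfection followed 24 hours after seeding in medium with 10% FBS (serum, given to both groups), and RNA was taken 72 hours after transfection. Replicates are numbered 1 to 3 in both groups, and the labels do not say whether they were separate cultures, so each p-value reflects array-to-array spread that may be technical. The submitters looked for candidate targets of miR-137 through mRNAs that change when it is inhibited. No probe set was named for the miR-137 gene, so the inhibition was not checked here.

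The inhibited microRNA is shown with its seed, the bases that pair with target mRNAs, in capitals. RefSeq (GRCh38.p14) places it at chr1:98046091-98046113 on the minus strand.
hsa-miR-137-3p: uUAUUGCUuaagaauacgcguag

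The cells carried the markers of the line. Of 12 noradrenergic neuroblastoma markers, 10 had a probe set, and all 10 lay above the 95th percentile of 360 olfactory receptor probe sets, with log2 values between 8.28 for *TH* and 14.5 for *CHGA*. Olfactory receptor genes served as a yardstick for mRNAs that these cells are not expected to make, and that percentile was a log2 value of 6.06. Mesenchymal markers (6 of 9) and glial markers (3 of 5 with a probe set) also passed it. The highest olfactory receptor probe set, at 8.63, was exceeded by 9 noradrenergic, 2 mesenchymal and 0 glial markers. The mean deviation of the mesenchymal markers from their 6-array mean was 0.21, -0.069 and -0.12 log2 units in anti-miR-137 replicates 1 to 3, against 0.087, -0.087 and -0.024 in control replicates 1 to 3. The glial marker *GFAP*, on the brightest of its 8 probe sets, averaged 7.52 with anti-miR-137 and 7.31 with the control anti-miR (unadjusted p = 0.014, adjusted p = 1.00, limma). The other 2 glial markers tested, *SOX10* (log2 difference -0.069) and *S100B* (-0.035), had lower means with anti-miR-137. The part of these markers in the results was not tested. Array medians lay between 6.39 and 6.43 and RNA integrity numbers between 9.5 and 9.8.

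Signals of the neurotrophin genes were low. Only 4 of the 21 probe sets exceeded the olfactory receptor percentile: the brightest one of *BDNF*, both of *NGFR* and 1 of *NTRK3*. The brightest of the 21 had a mean of 7.03, under the highest olfactory receptor probe set at 8.63. None of the 10 *NTRK2* probe sets did, and 13 of the 21 lay under 5.69, a filter on dim probe sets set at the 40th percentile of mean signal. The 8 that passed it were 2 for *NTRK2*, 1 for *NTRK3*, 2 for *NGFR* and 3 for *BDNF*. A log2 array value depends on the probes as well as on the mRNA, so the levels of different genes were not ranked. The arrays measured RNA of whole cultures, where fewer cells that make an mRNA and less of it per cell cannot be told apart.

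**Figure D1:**
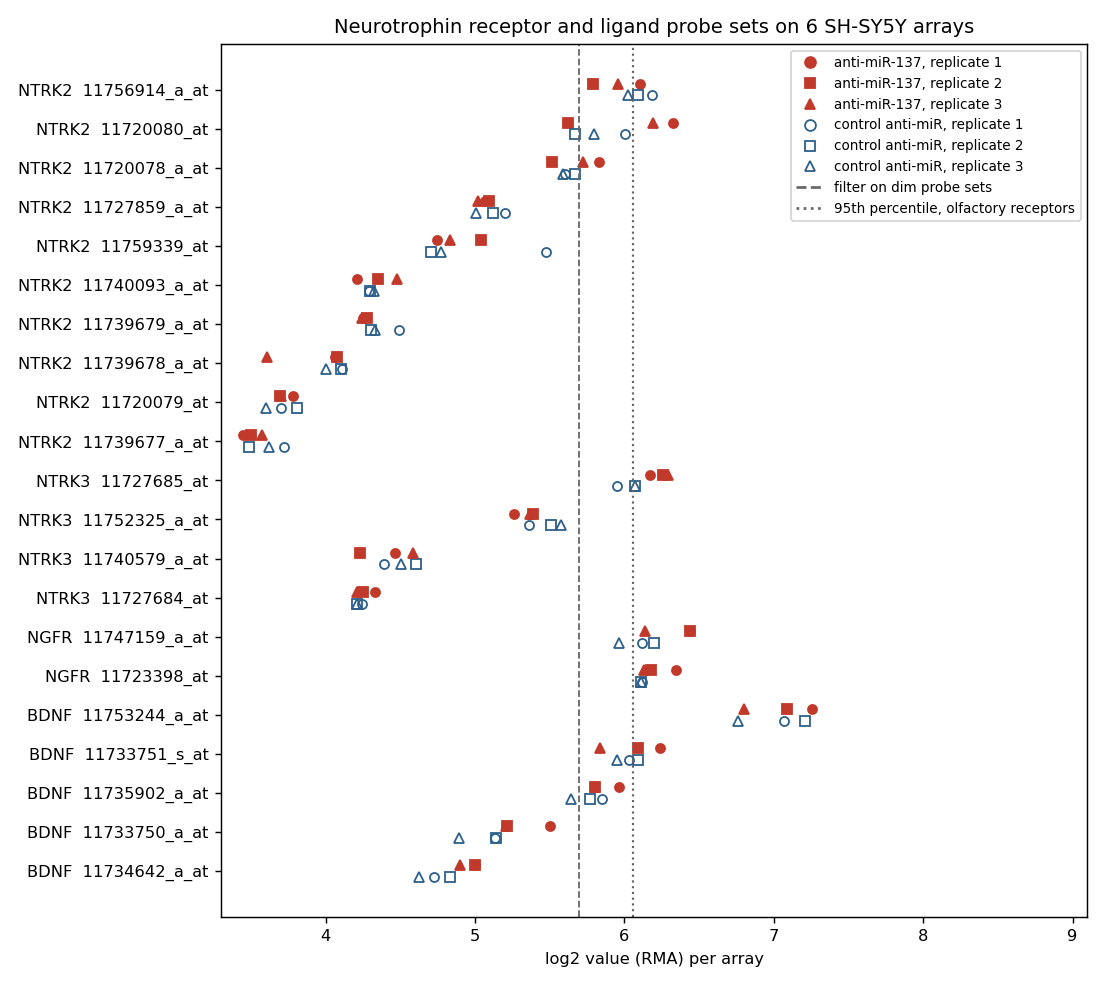
Log2 values (horizontal axis) of the 21 probe sets of NTRK2, NTRK3, NGFR and BDNF (rows) on each of 6 arrays, with anti-miR-137 arrays as filled and control arrays as open symbols, shaped by replicate number. The dashed line marks the filter at 5.69 and the dotted line the 95th percentile of olfactory receptor probe sets at 6.06, and 17 of the 21 rows have means that do not exceed the dotted line.

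No measured neurotrophin receptor or ligand passed the test of anti-miR-137 against control once p-values were adjusted. In limma, 0 of the 21 probe sets reached an adjusted p under 0.05, as did 0 of all 49393 (0%). At an unadjusted p under 0.05 there were 2 of the 21, 1 of *NTRK3* and 1 of *BDNF*, against 3.48% of all probe sets and 5.29% of those within the members' range of levels. The greatest difference was 0.25 log2 units, a 1.19-fold higher value. The 95% confidence interval lay within 0.5 log2 units of 0 for 18 of the 21, with a median half-width of 0.20. Anti-miR-137 means were higher for 13 of the 21 and lower for 8, with a median difference of 0.035, where 54.2% of all probe sets had higher values and their median was 0.0090. Among the 27331 probe sets within the same range of levels, 60.3% had higher values. The groups did not overlap for 5 of the 21, against 8.09% of all. Anti-miR-137 was higher in all 3 replicate numbers for 6 (15.2% of all) and lower in all 3 for 4 (11.6%).

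The receptor *NTRK2* gave no single direction. Its probe set with the highest mean (11756914_a_at) read 6.10, 5.79 and 5.96 in anti-miR-137 replicates 1 to 3, against 6.19, 6.09 and 6.03 in control replicates 1 to 3. The anti-miR-137 value was the lower one in each replicate number, but the groups overlapped, since the first anti-miR-137 array read above 2 of the control arrays. The log2 difference was -0.15 (95% confidence interval -0.37 to 0.075, adjusted p = 1.00 in limma). The next probe set (11720080_at) read 6.32, 5.62 and 6.19 in anti-miR-137 cells, against 6.002, 5.67 and 5.79 in control cells, a log2 difference of 0.22 (-0.18 to 0.63). Here replicates 1 and 3 were high with anti-miR-137, while both arrays of replicate 2 were low. Single arrays decided the size: it was 0.43 without anti-miR-137 replicate 2 and 0.084 without anti-miR-137 replicate 1. For 11756914_a_at, the same omissions gave -0.069 and -0.23. The direction of *NTRK2* therefore depended on the probe set: at the level of 1 value per gene it was -0.15, and it was 0.22 without probe sets whose suffix marks more than 1 matching transcript.

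The 8 dim *NTRK2* probe sets had means between 3.56 and 5.65. Over all 10, differences ran from -0.16 to 0.22 log2 units, 4 higher and 6 lower, and correlations over the 6 arrays between pairs of them ranged from -0.84 to 0.84, with 22 of 45 below 0. They share arrays and a gene but did not vary together. One of them (11739679_a_at) did not overlap between groups, with 4.25, 4.28 and 4.25 in anti-miR-137 cells against 4.49, 4.30 and 4.33 in control cells. Non-overlap with lower values occurred for 2.93% of all probe sets and 2.38% of those within the members' range of levels, and this one lay below the olfactory receptor median of 4.42. Another (11759339_at) was set apart by 1 array, control replicate 1 at 5.48, where the other 5 arrays read 4.71 to 5.04. Without that array its difference was 0.13, against -0.11 with all 6.

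*NTRK3*, the NT-3 receptor, read higher with anti-miR-137 on the 1 probe set that passed the filter, without passing the adjusted test, and gave mixed values on the others. That probe set (11727685_at) read 6.17, 6.26 and 6.29 in anti-miR-137 cells, against 5.95, 6.07 and 6.07 in control cells. The groups did not overlap, which with higher values held for 4 of the 21 probe sets and for 5.16% of all. Means were 6.24 ± 0.064 and 6.03 ± 0.069 (SD, n = 3 each), a log2 difference of 0.21 with a standard error of 0.077 and an adjusted p of 1.00 in limma. Within replicate numbers it was 0.22, 0.19 and 0.22.

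The other *NTRK3* probe sets lay under the filter. The next one (11752325_a_at) read 5.26, 5.39 and 5.37 in anti-miR-137 cells, against 5.36, 5.51 and 5.58 in control cells, a log2 difference of -0.14, lower in each replicate number. The remaining pair gave -0.073 and 0.043. Correlations among the 4 probe sets ranged from -0.76 to 0.30, with 4 of 6 below 0. The files do not tie probe sets to full-length or truncated receptors, so these opposite values could not be assigned to transcripts.

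Higher anti-miR-137 values were found for both probe sets of *NGFR*, the p75 receptor, and neither passed the test. One (11747159_a_at) read 6.44, 6.44 and 6.14 in anti-miR-137 cells, against 6.12, 6.20 and 5.96 in control cells. Replicate 3 was low in both groups, and the groups overlapped, with anti-miR-137 higher within every number. The log2 difference was 0.24 (-0.0057 to 0.49, adjusted p = 1.00 in limma). The other (11723398_at) read 6.35, 6.18 and 6.13 in anti-miR-137 cells, against 6.12, 6.11 and 6.11 in control cells. Its groups did not overlap, but 1 array, anti-miR-137 replicate 1, carried most of the difference of 0.11. Without that array it was 0.041. Their correlation over the 6 arrays was 0.74. Of 4794 genes with 2 probe sets, 34.8% had higher values on both. A probe set for *NGFR-AS1*, a transcript antisense to the gene and no member here, had a difference of 0.18 (adjusted p = 1.00 in limma).

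All 5 probe sets of *BDNF*, the TrkB ligand, had higher means in anti-miR-137 cells, by 0.030 to 0.25 log2 units, and none passed the test. Of 1005 genes with 5 probe sets, 7.06% had higher values on all of them. With cyclic loess normalization on top of the deposited values, 4 of the 5 were higher, and without anti-miR-137 replicate 1 or without control replicate 3, 3 were. The brightest probe set (11753244_a_at) read 7.26, 7.09 and 6.80 in anti-miR-137 cells, against 7.07, 7.21 and 6.76 in control cells. Replicate 3 was the lowest in both groups, and the groups overlapped throughout, with a difference of 0.035 (-0.30 to 0.37).

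The 2 *BDNF* probe sets without overlap between groups were those under the filter, where 5.5% of all probe sets had an unadjusted p under 0.05. Probe set 11734642_a_at read 5.00, 5.00 and 4.90 in anti-miR-137 cells, against 4.72, 4.83 and 4.63 in control cells. Means were 4.96 ± 0.057 and 4.73 ± 0.10 (SD, n = 3 each), a difference of 0.24 with a standard error of 0.082 and an adjusted p of 1.00 in limma. Probe set 11733750_a_at read 5.50, 5.21 and 5.20 in anti-miR-137 cells, against 5.14, 5.14 and 4.90 in control cells, a difference of 0.25 with a standard error of 0.11, which was 0.15 without anti-miR-137 replicate 1. In both, every anti-miR-137 array lay above every control array. Both lay within the olfactory receptor range, at its 70.3 and 80.3 percentile, and 6.94% of the 27331 probe sets within the members' range of levels did not overlap in this direction. The 2 kept ones that remain differed by 0.030 (11733751_s_at) and 0.10 (11735902_a_at), with overlapping groups. The 5 probe sets varied together over the 6 arrays, with correlations from 0.45 to 0.95 and 0 of 10 below 0.

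**Figure D2:**
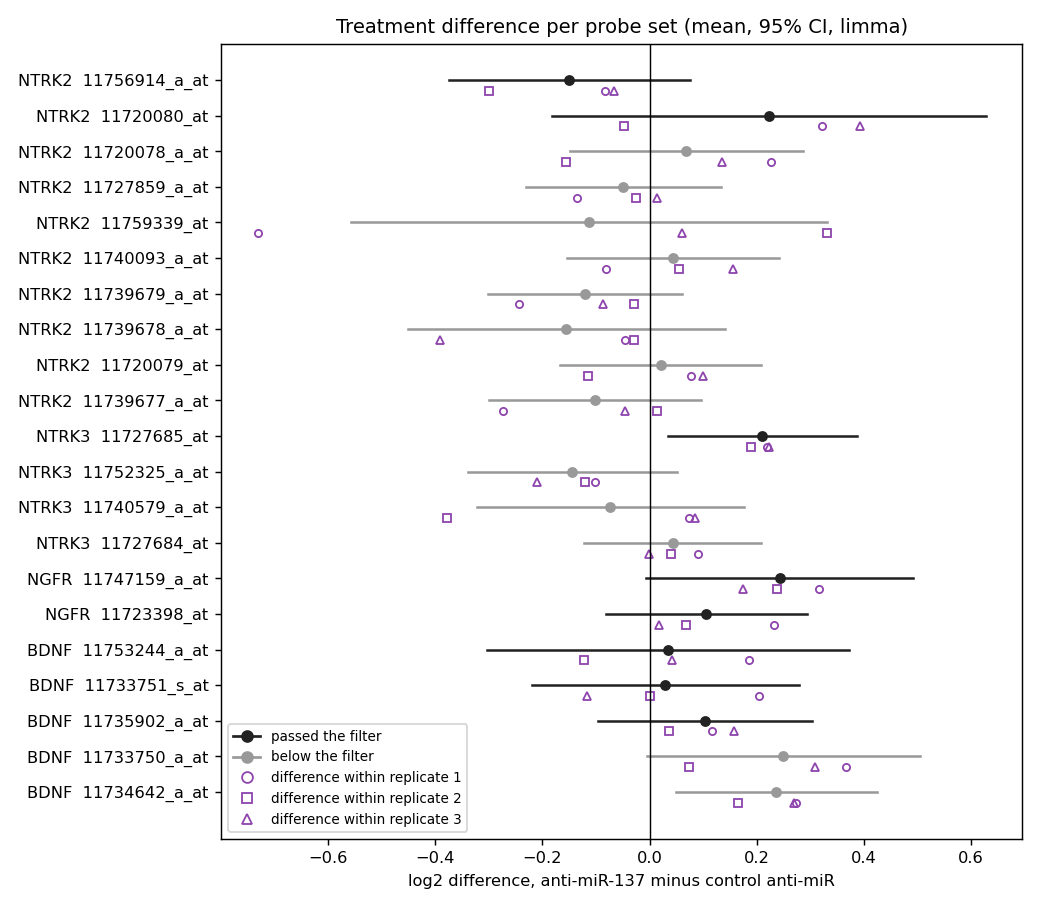
Log2 difference of anti-miR-137 minus control (horizontal axis) for each of the 21 probe sets (rows), as the mean with its 95% confidence interval from limma, black where the probe set passed the filter and grey where it did not, with the difference within each replicate number as open symbols below it. The interval includes 0 in 19 of the 21 rows, the 5 BDNF and 2 NGFR points lie right of 0, and the NTRK2 and NTRK3 points lie on both sides.

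*BDNF* is transcribed from several starts with different first exons, and 1 of them is known in rat to respond to neuronal activity through a cyclic AMP response element bound by CREB. RefSeq gives 5 windows of 300 bases around *BDNF* starts and 9 for *NTRK2*, *NTRK3*, *NTF3* and *SORT1*. The core ACGTCA (either strand) was found in 1 of the 5 and in 0 of the 9, against 7.98% of 35116 such windows, and the full palindrome TGACGTCA, which contains that core, in 0 of the 14 against 1.85%. The window with the core is printed in the direction of the gene with the match in capitals, as the 1 member window that held it. It lies at chr11:27701572-27701871 (GRCh38.p14, minus strand). The match describes the letters only, and the files do not tie a probe set to this start.
BDNF: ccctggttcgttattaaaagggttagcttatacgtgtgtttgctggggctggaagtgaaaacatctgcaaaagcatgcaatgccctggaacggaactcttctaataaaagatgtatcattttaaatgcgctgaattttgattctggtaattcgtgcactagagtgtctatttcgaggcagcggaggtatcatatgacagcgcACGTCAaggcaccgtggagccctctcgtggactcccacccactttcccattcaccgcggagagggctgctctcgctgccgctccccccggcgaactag

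*BDNF* means were lower in replicate 3, a difference that did not pass the test. All 5 *BDNF* probe sets had lower means in the replicate 3 arrays than in the replicate 1 arrays, by 0.097 to 0.38 log2 units. Of 1005 genes with 5 probe sets, 15.3% were lower on all 5. The brightest one averaged 0.38 lower in replicate 3 than in replicate 1 and 0.37 lower than in replicate 2, with an unadjusted p of 0.015 for the replicate number in limma's F test and an adjusted p of 0.27. Over the 21 probe sets, 16 had lower means in replicate 3 than in replicate 1, against 53.1% of all. Both arrays of replicate 3 lay below both of replicate 1 on 8 of the 21 probe sets, and above both on 3. The 8 were 4 of *NTRK2*, 3 of *BDNF* and 1 of *NTRK3*. How many of all probe sets did so was not counted, and the *BDNF* probe sets varied together over the arrays. *NGFR* was lower in replicate 3 on both probe sets, by 0.23 and 0.11. *NTRK2* was lower in replicate 3 than in replicate 1 on 8 of 10, with differences from -0.31 to 0.15. *NTRK3* was higher in replicate 3 than in replicate 1 on 3 of 4, by up to 0.16. For the *NTRK2* probe set 11720080_at, replicate 2 stood 0.51 below replicate 1 and 0.34 below replicate 3 (unadjusted p = 0.017, adjusted p = 0.27, limma).

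Over the 21 probe sets, 0 had an adjusted p under 0.05 for the replicate number, as for all 49393 (0%). At an unadjusted p under 0.05 there were 3, against 14% of all (23.5% of genes at 1 value per gene). With 1 value per gene, 320 of 12639 genes passed (2.53%) and 0 of the 4 members. With a variance prior that follows signal level, 1 of the 4 passed, *BDNF* (adjusted p = 0.046, limma). In that run 1797 of the 12639 genes passed, against 320 in the main run. The labels do not say what the numbers stand for. For replicate 2 minus replicate 1, *BDNF* was lower on 4 of 5 probe sets (-0.15 to 0.055) and *NGFR* on 1 of 2 (-0.089 to 0.040). The mean over the mesenchymal markers given above was lower in both replicates 2 and 3 than in replicate 1. Single markers differed: *YAP1* was 0.65 lower in replicate 3 than in replicate 1 and passed (adjusted p = 0.048, limma), the other 5 did not pass, and *SNAI2* stood 0.38 higher. Their part in the *BDNF* and *NGFR* values was not tested.

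**Figure D3:**
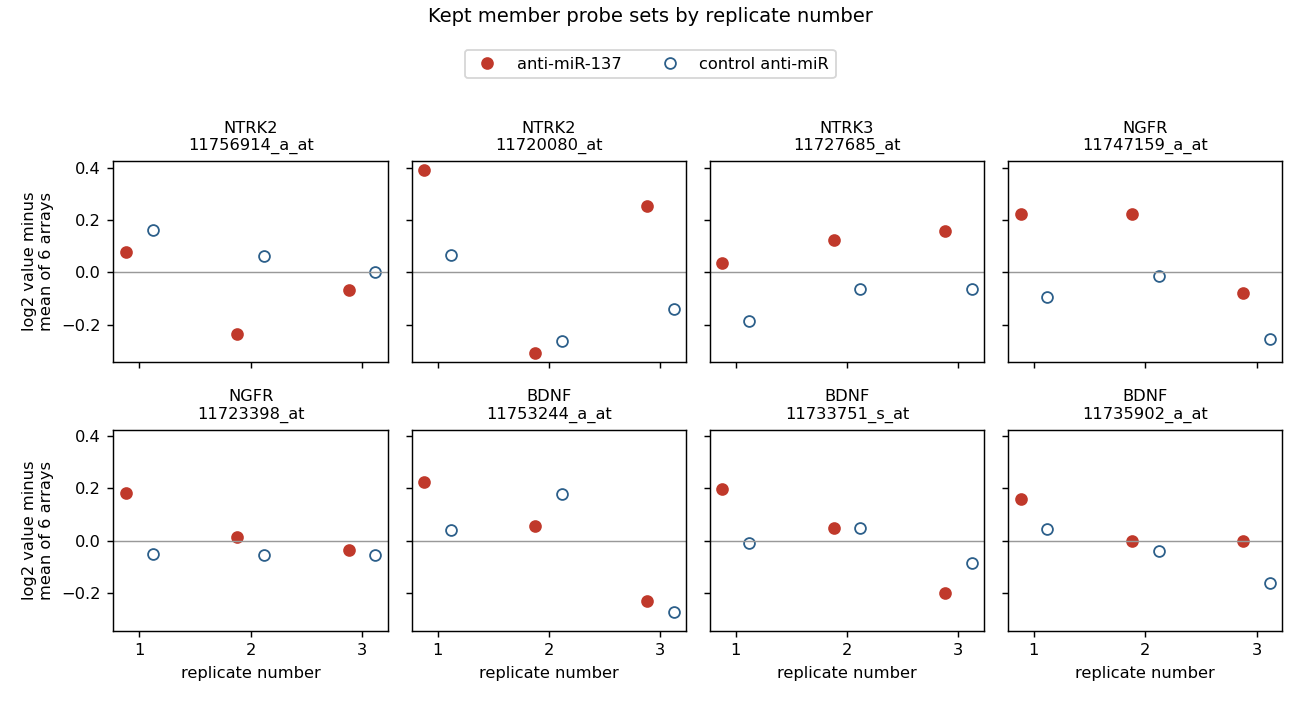
Log2 value minus the 6-array mean (vertical axis) for the 8 member probe sets that passed the filter, by replicate number (horizontal axis), with anti-miR-137 arrays as filled and control arrays as open circles. The single lowest value of each of the 3 BDNF panels is in replicate 3. For 11735902_a_at, the anti-miR-137 array of replicate 3 is level with that of replicate 2. In the NTRK3 panel the anti-miR-137 array is the higher one in every number.

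The members differed in which other genes their 6 values followed. Among 12638 other genes, each represented by its brightest kept probe set, *NTRK2* was most like *CLMP* (Pearson r = 0.997), *GPRC5B* (0.990) and *TUT4* (0.984). *NTRK3* was most like *STK24* (0.990), *SAMD14* (0.983) and *IZUMO1* (0.983). *NGFR* was most like *GRID1* (0.989), *SHISA3* (0.986) and *C21orf58* (0.986). *BDNF* was most like *PNISR* (0.993), *GRAMD1A* (0.992) and *PLOD1* (0.988). With 6 arrays such values are common: 78 to 273 genes had an r of at least 0.9 with each member. All genes share the same 6 arrays, and these correlations are descriptions.

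Other genes of neurotrophin signalling did not pass the test either. In 5 lists of 85 genes, 69 had a probe set with 1 symbol and 61 were tested at 1 value per gene. Anti-miR-137 means were higher for 32 and lower for 29, where 52% of all genes had higher means. The groups did not overlap for 4, against 7.36% of all genes. Of the 61, 0 passed over all genes and 1 had an unadjusted p under 0.05, against 2.65% of the 12639 genes. The median was 0.00049 over the 61 and 0.0033 over all genes.

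Among other ligands, receptors and sorting receptors, 3 of 7 were tested. The sortilin relatives *SORL1* (-0.086), *SORCS1* (-0.028) and *SORCS2* (-0.0017) had lower means on their brightest probe sets, and each interval included 0. Other probe sets differed in sign, with 0.043 for *SORL1*, 0.13 and -0.080 for *SORCS2*, and 2 of 5 above 0 for *SORCS1*. Averaged over probe sets, *SORL1* was -0.022. Of the processing enzymes, 4 of 7 had higher means, with the membrane protease *ADAM10* at -0.13 and the proprotein convertase *PCSK7* at 0.075. The other 3 probe sets of *ADAM10* gave -0.017 to -0.035, and their average with the brightest was -0.051. With 1 array left out, *PCSK7* ran from 0.037 to 0.11, lowest without control replicate 1.

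The 26 Trk adaptors and transducers split into 13 higher and 13 lower, with a median of -0.0049. *PLCG1*, the phospholipase that docks on activated Trk receptors, had 8.39, 8.15 and 8.48 in anti-miR-137 cells, against 8.41, 8.86 and 8.80 in control cells. The anti-miR-137 array was the lower one in each number, by little in replicate 1, and the groups overlapped. The difference was -0.35 (95% confidence interval -0.68 to -0.031, adjusted p = 1.00 in limma), and its other probe set gave -0.16. Without 1 array it ran from -0.26 (without anti-miR-137 replicate 2) to -0.49. *PIK3R1*, the regulatory subunit of PI3-kinase, had -0.34 (-0.75 to 0.060). All 8 of its probe sets had lower means in anti-miR-137 cells, with differences from -0.34 to -0.040. They share the same arrays, and the share of genes lower on all of 8 probe sets was not counted. The *PIK3R1* difference was -0.19 without anti-miR-137 replicate 2, -0.21 without control replicate 3 and -0.18 with its probe sets averaged.

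Of 12 partners and adaptors of p75, 9 had higher means, with a median of 0.053. The kinase *RIPK2* had 0.12 without overlap between groups, while its other probe set gave -0.17, and the adaptor *TRAF4* had 0.091, which became -0.021 when its probe sets were averaged. Without anti-miR-137 replicate 3 *RIPK2* was 0.076, and without control replicate 3 *TRAF4* was 0.036. Of 13 genes that respond to neurotrophins, 6 had higher means. The Ras pathway inhibitor *SPRY4* had 0.17 and the AP-1 subunit *FOSB* 0.082. *SPRY4* was 0.085 without anti-miR-137 replicate 3, and *FOSB* was 0.032 without anti-miR-137 replicate 2. The immediate early gene *EGR1* read 7.54, 8.08 and 7.82 in anti-miR-137 cells, against 7.33, 8.69 and 7.82 in control cells, so that replicate 2 was high in both groups.

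By replicate number, 2 of the 61 genes passed at 1 value per gene, against 2.53% of all genes. *TNFRSF19*, a relative of p75 that can pair with the Nogo receptor, read 6.40, 6.67 and 7.15 in anti-miR-137 replicates 1 to 3, against 6.11, 6.84 and 7.10 in control replicates 1 to 3. Replicate 3 averaged 0.87 above replicate 1 (adjusted p = 0.045, limma F test). *VGF*, a secreted peptide precursor induced by BDNF, read 11.55, 11.55 and 11.95 in anti-miR-137 cells, against 11.59, 11.59 and 11.94 in control cells, with replicate 3 0.38 above replicate 1 (adjusted p = 0.0498). Both stood at the edge of the threshold: *VGF* had 0.055 after quantile normalization. With every probe set tested on its own, the adjusted p of the same probe sets was 0.17 for *TNFRSF19* and 0.20 for *VGF*. For replicate 3 minus 1, the other probe sets gave 0.33 and -0.073 for *TNFRSF19* and 0.28 for *VGF*. The 2 genes of each list with the smallest p for replicate number also included *SORCS2* (-0.42 for replicate 3 minus 1) and *SORCS1* (-0.18), the convertase *PCSK6* (-0.32) and the protease *MMP2* (-0.14). In the other lists they were the adaptor *SHC1* (-0.31), *HRAS* (0.32), *ARHGDIA* (0.25) and *EGR1* (0.39). Their adjusted p-values in limma ran from 0.053 for *SORCS2* to 0.32 for *SORCS1*. The *SORCS2* probe set had a mean of 5.72, below the olfactory receptor percentile of 6.06, and its other probe sets gave 0.087 and 0.047. Other probe sets also differed in sign for *MMP2* (0.082, -0.13 and -0.12), *EGR1*, *SORCS1* and *PCSK6*. Those of *SHC1*, *HRAS* and *ARHGDIA* kept the sign.

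**Figure D4:**
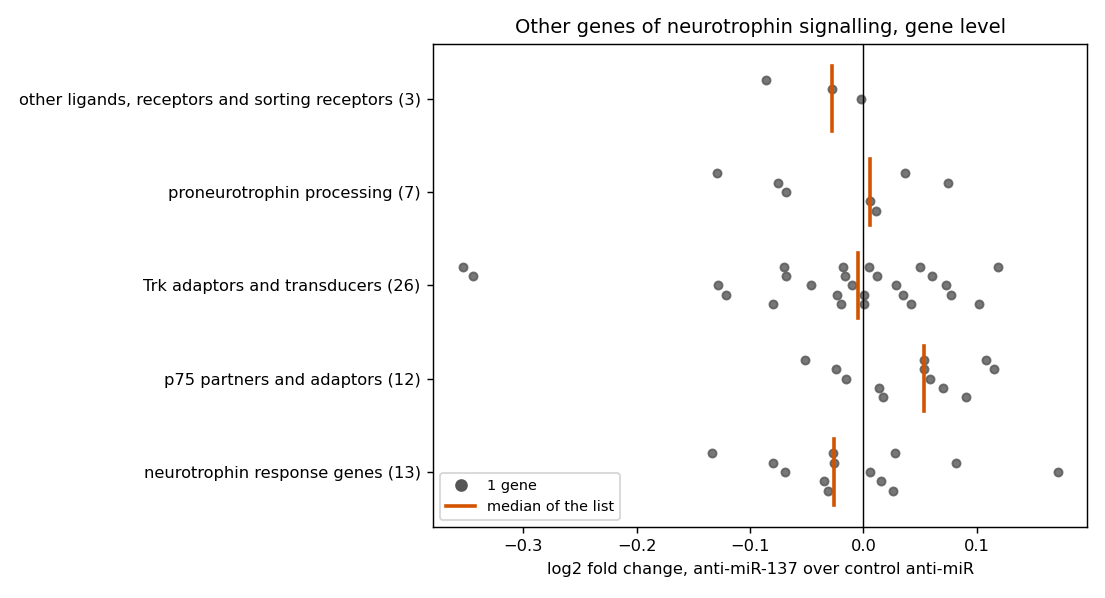
Log2 fold change of anti-miR-137 over control (horizontal axis) for the 61 tested genes of neurotrophin signalling in 5 lists (rows, number of genes in brackets), 1 point per gene, with the list median as a bar. Most points lie within 0.15 of 0, and PLCG1 and PIK3R1 are the 2 points at the far left of the Trk adaptor row.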

How the data were processed

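Total RNA of 6 SH-SY5Y samples (3 anti-miR-137, 3 control) was measured on 1-colour arrays after amplification and biotin labelling of 100 ng. The deposited log2 values per probe set came from RMA in R 3.0.1, per the submitters' processing notes; RMA aligns the arrays, so a shift of all mRNAs could not be seen. Of 49495 probe sets, 102 were controls; 45278 of the rest had 1 gene symbol, 1333 several and 2782 none listed.

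Members and lists were chosen with earlier results of these data known. Every probe set was tested with limma 3.58.1 in R 4.3.3 (lmFit, eBayes, with a term for group alone, two-sided tests, Benjamini-Hochberg over 49393 probe sets, threshold 0.05). Replicate number was tested with an F test beside group. At 1 value per gene, the brightest probe set with a mean at or above the 40th percentile was kept (12639 genes). From each list, 2 genes with the smallest p for treatment and 2 for replicate number were named, and per kept member the 3 genes with the highest r. The steps were tested on simulated data with independent noise per array and added differences greater than those of the members. That test does not cover differences as small as those of the members. Alternatives were other filters, averaged or unsuffixed probe sets, quantile and cyclic loess normalization, a trended prior, array weights, a replicate block and left-out arrays. Same-numbered arrays had correlations of deviations of 0.55, 0.073 and 0.65 in replicates 1 to 3. Replicate 2 lay under the 0.1 required of each pair, so the numbers were not taken as pairs. Variation that same-numbered arrays share therefore stayed in the spread of the main fit and in its intervals. The number of arrays limits precision. No genome position is given for probe sets. Sequences are from RefSeq.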

Additional observations from a re-analysis of the deposited data

How the results depend on the processing

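The count of 0 member probe sets, 0 member genes and 0 list genes past the adjusted threshold for treatment was the same in every alternative run (0 to 0 with an array left out). With the filter at the 60th percentile no member gene remained, so that run could not call one. Without suffixed probe sets *BDNF* was not tested, since all 5 of its probe sets carry a suffix. The filter at the 40th percentile left 8 of the 21 member probe sets in the fit. At an unadjusted p under 0.05, 2 member probe sets became 1 with the filter at the 40th percentile, 1 with cyclic loess, 1 with a trended prior, 4 with the replicate block (smallest adjusted p 0.85) and 1 to 3 with an array left out (1 without anti-miR-137 replicate 1 or 2 or control replicate 3). The share of all probe sets at that unadjusted p moved too, from 3.48% in the main run. It was 2.51% with the filter, 3.19% with cyclic loess, 2.96% with a trended prior and 5.75% with the replicate block. With an array left out it ran from 2.6% to 5.26%. The block changed no call. Of 113 probe set differences under other settings, 5 changed sign: *NTRK2* 11720079_at (-0.0049 with quantile, -0.0084 with cyclic loess, -0.010 with array weights), *NTRK2* 11759339_at (0.018 with array weights) and *BDNF* 11733751_s_at (-0.00053 with cyclic loess). At 1 value per gene, *NTRK2* was 0.037 with averaged and 0.22 without suffixed probe sets, *TRAF4* -0.021 with averaged ones, and *BDNF* -0.027 with array weights. With an array left out, these probe sets crossed 0: for *NTRK2*, 11720078_a_at (-0.0020 to 0.16), 11759339_at (-0.25 to 0.13), 11740093_a_at (-0.022 to 0.11) and 11720079_at (-0.031 to 0.073); for *NTRK3*, 11740579_a_at (-0.15 to 0.026); for *BDNF*, 11753244_a_at, also its value per gene (-0.092 to 0.16), and 11733751_s_at (-0.062 to 0.14). *SORCS1* ran from -0.096 to 0.022. For replicate number, 0 member probe sets passed in all settings; over all probe sets 4 passed with the number as the only term, 2862 with a trended prior and 3 with the filter, and 1 member gene, *BDNF*, with the trended prior. Over all genes, 526 passed with the number as the only term and 1797 with the trended prior, against 320. By adjusted p, *VGF* was lost with quantile normalization (0.055), and *SORCS2* passed with cyclic loess (0.0497) and with the number as the only term (0.030); *PCSK6*, *MMP2*, *SHC1*, *HRAS* and *EGR1* passed with the trended prior. No difference of replicate 3 minus replicate 1 changed sign for a member, and the differences from replicate 2 were not rerun. The cause of these changes was not tested. Most members lie near the signal of olfactory receptor genes, which limits what their values can show.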
